A study of Homo sapiens with 6 samples.

Results

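SNAI1, SNAI2, TWIST1, TWIST2, ZEB1, ZEB2 and PRRX1 encode the transcription factors best known for holding cells in a mesenchymal state. They were described here in HT1080 cells, an established human fibrosarcoma line. The 7 genes were found by symbol among the 60675 genes of the deposited table. They were chosen for this description with the measured difference between the 2 compounds already known, so their values are given as a description, without p-values. The cells, wild type per the labels, were given either SW-113 or SW-138 for 48 h, each at 1 µM. The series asks how selective such inhibitors are for KDAC6, also named HDAC6, a lysine deacetylase found mostly in the cytoplasm. There were 3 libraries per compound, and the labels used here name no untreated or vehicle group, so "higher" and "lower" refer to SW-138 relative to SW-113. Both compounds are known here by code name only. The labels do not say whether the 3 libraries of a compound came from separate cultures, so the spread between them may be technical.

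As background, these factors fall into 4 families. SNAI1 and SNAI2 (Snail and Slug) are zinc-finger repressors that bind E-box sequences, CAGGTG above all, in promoters of epithelial genes such as CDH1, which encodes E-cadherin. TWIST1 and TWIST2 are basic helix-loop-helix proteins that bind E-boxes as dimers with the E proteins TCF3, TCF4 and TCF12, and ID proteins can take those partners away. ZEB1 and ZEB2 carry a zinc-finger cluster near each end, bind the same E-boxes and recruit the corepressors CTBP1 and CTBP2. PRRX1 is a paired-related homeodomain factor of embryonic limb and craniofacial mesenchyme. In epithelial cells the miR-200 microRNAs lower ZEB1 and ZEB2 through sites in their 3′ UTRs, and the ZEB proteins repress the miR-200 genes in turn.

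The miR-200 family is shown first, because matches to its seeds recurred in both ZEB genes. Mature sequences are from RefSeq (GRCh38.p14), 5′ to 3′, with the seed, bases 2 to 8, in capitals. The first 3 share the seed AAUACUG and the last pair the seed AACACUG.
hsa-miR-200b-3p: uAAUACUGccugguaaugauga
hsa-miR-200c-3p: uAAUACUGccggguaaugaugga
hsa-miR-429: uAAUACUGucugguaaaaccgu
hsa-miR-200a-3p: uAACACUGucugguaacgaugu
hsa-miR-141-3p: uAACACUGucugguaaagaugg
These libraries measured no mature microRNA.

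The 3′ UTR of the longest coding transcript of each gene in GENCODE 29 (GRCh38) was searched for the complement of each seed on the transcript's strand. ZEB1, with a 3′ UTR of 2549 bases, held 6 matches to CAGTATT and 3 to CAGTGTT. ZEB2, with 5370 bases, held 5 and 4. Among 19287 coding genes, 0.840% had at least 3 matches to CAGTATT and 1.04% at least 3 to CAGTGTT, and 15.9% and 18.1% had at least 1. SNAI2 held 1 match to CAGTATT and 0 to CAGTGTT. SNAI1, TWIST1, TWIST2 and PRRX1 held 0 of either. A match is a description of the letters and not a measured site. The first 2 CAGTATT matches after the stop codon in each ZEB gene, with the match in capitals, read as follows, ZEB1 from the plus strand and ZEB2 from the minus strand.
ZEB1, chr10:31527619-31527640: ttgttttatcttatCAGTATTa
ZEB1, chr10:31527713-31527734: tgctaaatccgcttCAGTATTt
ZEB2, chr2:144389052-144389073: gcactaccatacatCAGTATTt
ZEB2, chr2:144388989-144389010: gcactacaatgcatCAGTATTa

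Other microRNAs tied to these factors had fewer matches. The seed complement of hsa-miR-205-5p, ATGAAGG, occurred 1 time in ZEB1 and 0 times in the others, beside 11.5% of coding genes with at least 1. That of hsa-miR-34a-5p, CACTGCC, occurred 1 time in SNAI1 and 1 time in ZEB1, beside 15.6% of coding genes. The SNAI1 match lay 86 bases past the stop codon.
hsa-miR-205-5p: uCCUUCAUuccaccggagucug
hsa-miR-34a-5p: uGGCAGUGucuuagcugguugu
SNAI1, chr20:49988128-49988149, plus strand: ccccacatccttctCACTGCCa

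Promoters were read from RefSeq (GRCh38.p14) as the 250 bases before each start, with entries for TWIST2, ZEB1, ZEB2 and PRRX1 and not for SNAI1, SNAI2 and TWIST1. The E-box CAGGTG, searched on both strands (CACCTG on the other), was present before 2 of 7 ZEB1 starts and absent from the single windows of TWIST2, ZEB2 and PRRX1. It occurred in 17.5% of 35116 promoter windows of the same length. The GC-box GGGCGG occurred 4 times before TWIST2, counted on both strands, and in 42.6% of all windows. The windows of TWIST2, one of the genes with lower values, and of ZEB1 with 2 E-boxes are shown, both from the plus strand with CAGGTG or CACCTG in capitals. The G+C content was 68.4% in the first and 62.4% in the second.
TWIST2, chr2:238847835-238848084: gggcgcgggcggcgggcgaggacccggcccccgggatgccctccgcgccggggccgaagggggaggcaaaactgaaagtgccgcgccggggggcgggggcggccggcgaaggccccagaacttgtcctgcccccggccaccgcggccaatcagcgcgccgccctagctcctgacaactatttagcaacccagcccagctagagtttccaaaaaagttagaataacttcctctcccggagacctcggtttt
ZEB1, chr10:31318966-31319215: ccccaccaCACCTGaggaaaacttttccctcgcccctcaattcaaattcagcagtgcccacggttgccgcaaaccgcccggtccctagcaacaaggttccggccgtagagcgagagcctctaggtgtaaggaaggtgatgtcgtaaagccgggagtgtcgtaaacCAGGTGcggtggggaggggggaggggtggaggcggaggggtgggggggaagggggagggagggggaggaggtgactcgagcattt

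Library totals ran from 32771670 to 50871623 estimated counts, and 24844 to 25809 genes were detected with 1 count or more. Totals were 39249722 to 50871623 in SW-113 and 32771670 to 40527236 in SW-138. TMM factors, which adjust totals for composition, were 0.976 to 0.981 in SW-113 and 1.01 to 1.03 in SW-138 and so did not overlap. Of the 10 mesenchymal markers, 6 had a mean of at least 10 CPM (counts scaled to equal TMM-adjusted library totals, in parts of 1e6), led by VIM at 3330 to 3860 CPM and FN1 at 1000 to 1500 CPM. Among the 7 epithelial markers, KRT8 and KRT18 were at 221 and 236 CPM on average, while CDH1 and EPCAM had 6 and 2 counts over all 6 libraries. The fibroblast markers COL1A1, COL1A2 and THY1 were at 0.995, 0.0859 and 0.0640 CPM. The 20 markers of other cell types summed to 1.60 to 2.73 CPM in SW-113 and 1.87 to 2.90 CPM in SW-138, and ALB, S100B, MYOD1, KRT5, KRT14 and HBB had 0 counts in every library. In bulk RNA, fewer cells of a type and less RNA per cell cannot be told apart.

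The CPM scale counts reads along the whole transcript, so a longer transcript collects more of them. Levels were therefore compared between genes only as CPM per kilobase of the longest coding transcript. TWIST2 and SNAI2 were at 12.0 ± 1.49 and 11.8 ± 1.61 CPM per kilobase (mean ± SD, n = 6 libraries). ZEB1 followed at 11.3 ± 0.537 and ZEB2 at 7.85 ± 0.321. TWIST1 was at 5.27 ± 0.852 and SNAI1 at 2.03 ± 0.429. PRRX1 was at 0.0363 ± 0.0221. The SDs of TWIST2 and SNAI2 over the 6 libraries include their difference between compounds, so the order of the first 3 is given for each compound in turn. Each later step was larger than the SDs of the neighbours it separated.

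Of the 16784 tested genes with a known length, 71.3% had a lower level per kilobase than TWIST2, 69.8% than ZEB1, 53.0% than TWIST1 and 37.2% than SNAI1. PRRX1 stood above 0.203% of them, but it did not pass the count filter that these genes passed, so a low place was set beforehand. When the combined length of all annotated exons replaced the longest coding transcript, ZEB2 came to 3.00 and TWIST1 to 4.32 CPM per kilobase, so that pair changed places. In the SW-113 libraries the order was TWIST2 at 13.3 ± 0.457, SNAI2 at 13.2 ± 0.646 and ZEB1 at 10.9 ± 0.178 CPM per kilobase (SD, n = 3). In the SW-138 libraries it was ZEB1 at 11.7 ± 0.439, TWIST2 at 10.8 ± 0.732 and SNAI2 at 10.4 ± 0.158. TWIST2 and SNAI2 lay within the spread of each other in both, while ZEB1 lay below them by more than the SDs in SW-113.

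**Figure D1:**
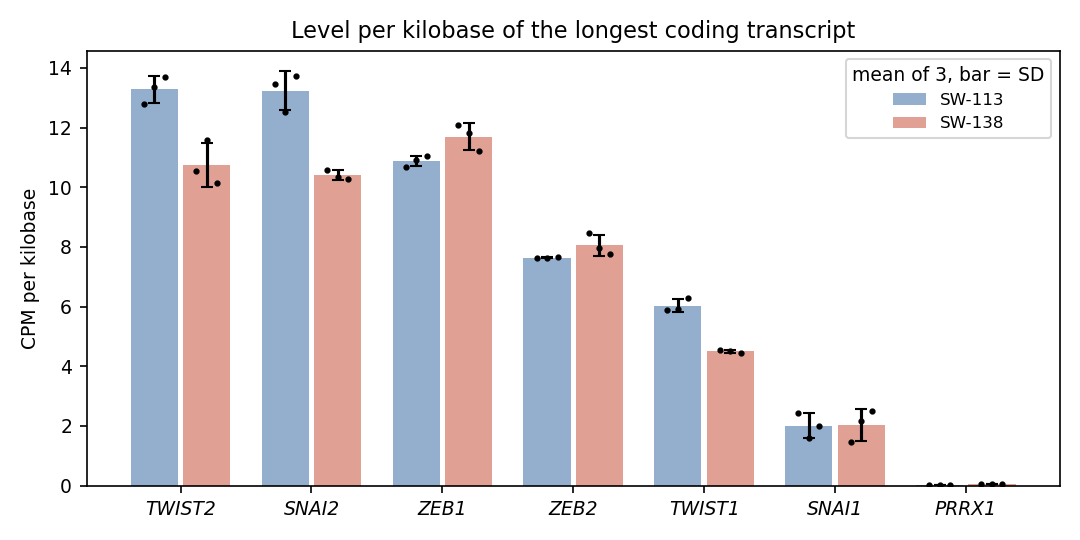
Level of each gene in CPM per kilobase of its longest coding transcript, by compound; bars are means of 3 libraries, error bars SDs and dots the libraries. TWIST2 and SNAI2 stood above ZEB1 in SW-113 and below it in SW-138, and PRRX1 was close to 0 in both.

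SNAI2, which encodes Slug, had the more abundant RNA of the SNAI pair and was lower in SW-138. SNAI2 (ENSG00000019549, chromosome 8, 48917604 to 48921740, minus strand, 3 exons) had 1258, 1506 and 1357 counts in SW-113 replicates 1, 2 and 3, and 1072, 849 and 920 in SW-138. As CPM these were 32.7, 30.4 and 33.4 in SW-113 and 25.7, 25.1 and 25.0 in SW-138. Every SW-113 library was above every SW-138 library. The means were 32.1 ± 1.57 and 25.3 ± 0.383 CPM (SD, n = 3 each), a log2 fold change of -0.35 (SE 0.06, 95% interval -0.48 to -0.21), or 1.27-fold more in SW-113.

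SNAI1 (ENSG00000124216, chromosome 20, 49982999 to 49988886, plus strand, 3 exons), which encodes Snail, a short-lived protein, was a low-count gene with 102 to 157 counts per library. Its CPM values were 4.08, 2.70 and 3.39 in SW-113 and 2.45, 3.64 and 4.24 in SW-138. The groups overlapped fully, with means of 3.39 ± 0.689 and 3.44 ± 0.912 CPM (SD, n = 3 each) and a log2 fold change of 0.02 (SE 0.22, 95% interval -0.47 to 0.51). The interval spans values as large as that of SNAI2, so whether SNAI1 moved with SNAI2 was not detectable in these libraries. SNAI1 varied by 20.3% and 26.5% (coefficients of variation) within SW-113 and SW-138, where counting 135 reads alone gives 8.61%. SNAI2 varied by 4.88% and 1.51%. Per library, SNAI2 counts were between 5.90 and 11.2 times those of SNAI1. The third SNAI gene, SNAI3, had 4 to 7 counts per library.

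Both TWIST genes were expressed, and both had less RNA in the SW-138 libraries. TWIST1 (ENSG00000122691, chromosome 7, 19020991 to 19117672, minus strand, 2 exons) had 9.82, 9.88 and 10.5 CPM in SW-113 and 7.58, 7.52 and 7.41 CPM in SW-138, from 254 to 490 counts. The groups were apart and tight, with coefficients of variation of 3.57% and 1.10%. The means were 10.1 ± 0.359 and 7.50 ± 0.0825 CPM (SD, n = 3 each), with a log2 fold change of -0.42 (SE 0.08, 95% interval -0.61 to -0.24), or 1.34-fold more in SW-113. This was the largest fitted difference among the 6 tested genes of the set. An antisense transcript that overlaps TWIST1, AC003986.2, had 6 to 13 counts per library.

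TWIST2 (ENSG00000233608, chromosome 2, 238848032 to 238910543, plus strand, 2 exons) had 17.95, 18.75 and 19.22 CPM in SW-113 and 14.8, 16.2 and 14.3 CPM in SW-138, from 525 to 930 counts. The groups did not overlap, and SW-138 replicate 2 lay nearest to SW-113. The means were 18.6 ± 0.641 and 15.1 ± 1.03 CPM (SD, n = 3 each), with a log2 fold change of -0.31 (SE 0.07, 95% interval -0.47 to -0.14), or 1.24-fold more in SW-113. The ratio of TWIST2 to TWIST1 counts was 1.83, 1.90 and 1.84 in SW-113 and 1.95, 2.16 and 1.92 in SW-138.

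ZEB1 and ZEB2 were the members with the most reads. ZEB1 (ENSG00000148516, chromosome 10, 31318495 to 31529814, plus strand, 9 exons) had 67.0, 68.4 and 69.2 CPM in SW-113 and 75.7, 74.0 and 70.3 CPM in SW-138, from 2500 to 3391 estimated counts. The groups did not overlap, by a gap of 69.2 to 70.3 CPM. The means were 68.2 ± 1.11 and 73.3 ± 2.75 CPM (SD, n = 3 each), with a log2 fold change of 0.10 (SE 0.05, 95% interval -0.01 to 0.21). The interval holds 0 and reaches no further down than -0.01.

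ZEB2 (ENSG00000169554, chromosome 2, 144364364 to 144524583, minus strand, 10 exons) had 73.2, 73.0 and 73.5 CPM in SW-113 and 81.0, 76.2 and 74.3 CPM in SW-138. The SW-113 libraries were nearly equal, and SW-138 replicate 1 was the highest of the 6. The means were 73.3 ± 0.242 and 77.2 ± 3.49 CPM (SD, n = 3 each), with a log2 fold change of 0.08 (SE 0.05, 95% interval -0.04 to 0.19). The ratio of ZEB2 to ZEB1 counts stayed between 1.03 and 1.09 in the 6 libraries.

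Transcripts that share the ZEB loci were also counted. ZEB1-AS1, which starts next to ZEB1 on the other strand, was at 8.37 to 8.93 CPM, with means of 8.67 ± 0.228 in SW-113 and 8.57 ± 0.317 in SW-138 (SD, n = 3 each). The counts of ZEB1 and ZEB1-AS1 were not whole in most libraries, but their sum was whole in 6 of 6, so reads were divided between them; ZEB1 was the only member with counts that were not whole. Inside ZEB2, AC009951.1 on the same strand had 19 to 51 counts, ZEB2-AS1 had 0 to 8, AC009951.2 had 0 or 1, and RF01984, RF01986 and RF01987 had 0. SPTLC1P1, a pseudogene inside ZEB1, had 2 counts in 1 library, and AL117340.1, a second one there, is not analysed here. Z97200.1, inside PRRX1, had 0.

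PRRX1 (ENSG00000116132, chromosome 1, 170662728 to 170739419, plus strand, 4 exons) was nearly silent. It had 1, 4 and 5 counts in SW-113 and 8, 9 and 9 counts in SW-138, or 0.0260 to 0.123 CPM and 0.192 to 0.266 CPM. The groups did not overlap, but the counts were too few to pass the filter and PRRX1 was not tested. Summed per compound, the 10 and 26 counts gave a ratio of 2.98 (exact 95% interval 1.39 to 6.93), an interval that covers counting error only and not the spread between libraries. PRRX2, its close relative, had 1 count over all 6 libraries.

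**Figure D2:**
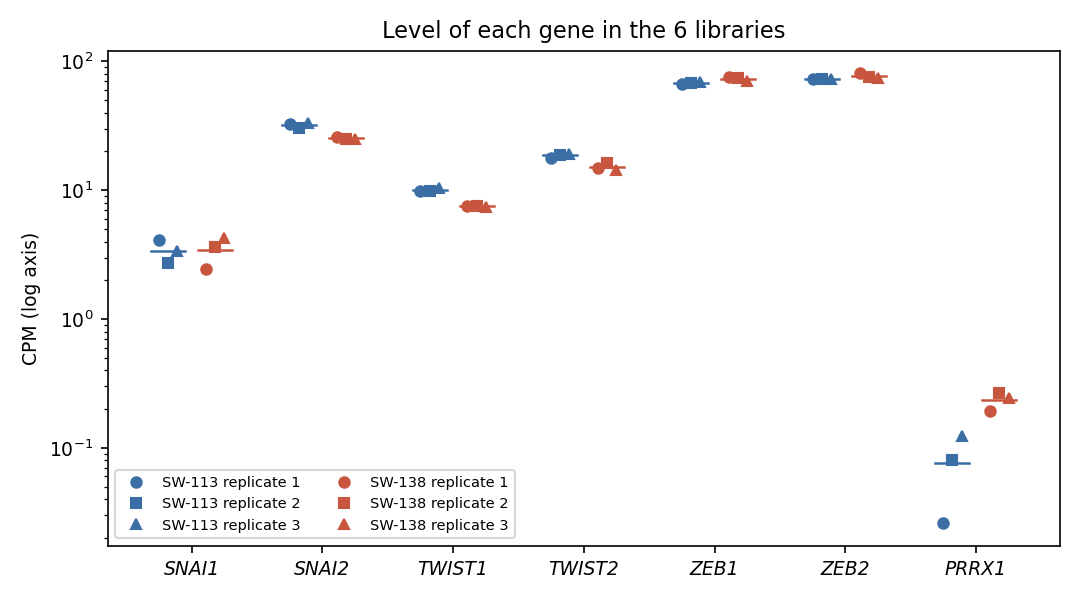
CPM of each gene in each library on a log axis; symbols mark replicates, colours compounds and lines group means. SNAI2, TWIST1 and TWIST2 sat lower in all 3 SW-138 libraries, the ZEB genes slightly higher, SNAI1 overlapped, and PRRX1 lay under 0.3 CPM.

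Of the 7 genes, 6 passed the filter on low counts. Under edgeR's quasi-likelihood test with p-values adjusted over all tested genes by Benjamini-Hochberg at 0.05, SNAI2, TWIST1 and TWIST2, 3 of the 6, were called lower and 0 were called higher. Over all 16905 tested genes, 1153 (6.82%) were called, 687 lower (4.06%) and 466 higher (2.76%). That balance depended on the scaling: with libraries scaled by total count alone, 377 were lower and 923 higher. The groups did not overlap for 5 of the 6, as for 27.9% of tested genes. The 6 genes had a median log2 fold change of -0.14, beside 0.01 for all tested genes. These counts come from the contrast the genes were chosen on, and nothing is read from them. Among the called members TWIST2, at -0.31, lay nearest to the threshold. The next member outside it was ZEB1, at 0.10, which was not close to it.

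The calls changed when single libraries were left out, and so did the number of calls over all tested genes. That number was 1153 with all libraries and 1616 without SW-138 replicate 2. It was 303 to 605 without any other single library, and lowest without SW-113 replicate 3. SNAI2 and TWIST1 kept their calls when each library was left out in turn except SW-113 replicate 3, without which their log2 fold changes were -0.32 and -0.39. TWIST2 passed only without SW-138 replicate 2, at -0.36, and in the other 5 it did not, at -0.26 to -0.33. With libraries scaled by total count alone TWIST2 also did not pass, at -0.24.

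**Figure D3:**
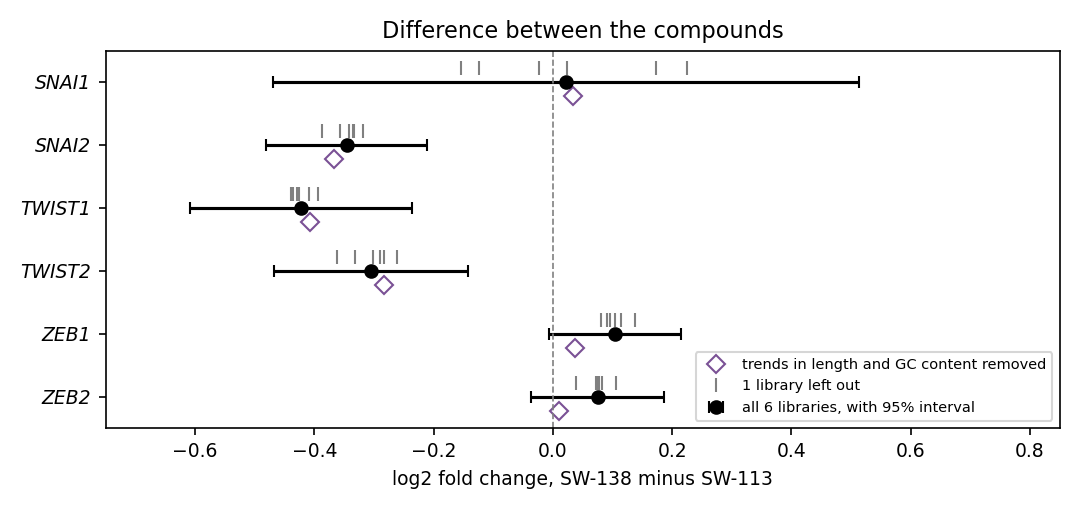
Log2 fold change, SW-138 minus SW-113, for the 6 tested genes; dots with bars are the fitted values with 95% intervals, ticks the 6 values with 1 library left out, and diamonds the values with trends in transcript length and G+C content removed. SNAI2, TWIST1 and TWIST2 lay between -0.44 and -0.26 in each version, the ZEB values moved to 0.04 and 0.01 with trends removed, and SNAI1 spread on both sides of 0.

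Ratios between members within a library do not depend on how libraries are scaled, and those of ZEB1 to SNAI2, TWIST1 and TWIST2 differed between the compounds. ZEB1 counts were 6.83, 6.92 and 6.61 times those of TWIST1 in SW-113, and 9.99, 9.84 and 9.48 times in SW-138. The ratio of ZEB1 to SNAI2 was 2.05, 2.25 and 2.08 in SW-113 and 2.95, 2.95 and 2.81 in SW-138. That of ZEB1 to TWIST2 was 3.734, 3.646 and 3.603 against 5.117, 4.554 and 4.931. For each of the 3 ratios, every SW-138 library was above every SW-113 library. The genes were chosen with this contrast known and other gene pairs were not examined, so nothing is read from this separation. Such ratios also carry the trend with transcript length described below. The median log2 fold change was 0.04 in the length class of ZEB1 and -0.16 in that of TWIST2. TWIST1 and SNAI2 kept closer to one proportion, with 0.301, 0.325 and 0.314 TWIST1 counts per SNAI2 count in SW-113 and 0.295, 0.299 and 0.297 in SW-138, so that the groups were apart only by a narrow gap.

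Expressed as shares of the summed level per kilobase of the 7 genes, the ZEB genes made up 34.9 ± 0.686% in SW-113 and 41.6 ± 1.28% in SW-138 (SD, n = 3 each). The TWIST genes made up 36.4 ± 0.945% and 32.1 ± 0.976%. The SNAI genes made up 28.7 ± 1.44% and 26.2 ± 1.21%, and the single values overlapped, at 27.2% to 30.0% and 25.2% to 27.6%. Shares are parts of a whole, so the share of a family can rise because the others are lower. The intervals of the ZEB1 and ZEB2 log2 fold changes, 0.10 and 0.08, held 0. The shares also depend on the length used and were not recomputed with the combined exon length. That length put ZEB2 at 3.00 in place of 7.85 CPM per kilobase.

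The difference between compounds also followed transcript length over all genes. The 13300 tested protein-coding genes were divided into 10 classes of about equal size by the length of the longest coding transcript. In the shortest class, up to 1467 bases, the median log2 fold change was -0.16, with 252 of 1332 genes lower (18.9%) and 12 higher. TWIST2, at 1404 bases, belongs to it. The next class, which holds TWIST1 at 1666 and SNAI1 at 1686 bases, had a median of -0.08 with 103 genes lower (7.74%) and 15 higher. The class of SNAI2, at 2428 bases, had a median of -0.02 with 62 lower (4.66%) and 29 higher.

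In the 2 longest classes, which hold ZEB1 at 6267 and ZEB2 at 9583 bases, the medians were 0.04 and 0.04. There 69 and 75 genes were higher and 25 and 17 lower. With trends in length and G+C content removed within each library, log2 fold changes were -0.37 for SNAI2, -0.41 for TWIST1 and -0.28 for TWIST2. They were 0.04 for ZEB1, 0.01 for ZEB2 and 0.03 for SNAI1. With these trends removed, 766 of all 16905 tested genes were called lower and 386 higher, against 687 and 466 without that step. SNAI2, TWIST1 and TWIST2 were still past the threshold, TWIST2 narrowly. These calls come from the contrast the genes were chosen on, and nothing is read from them. Length and G+C content were available for 99.3% of tested genes.

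**Figure D4:**
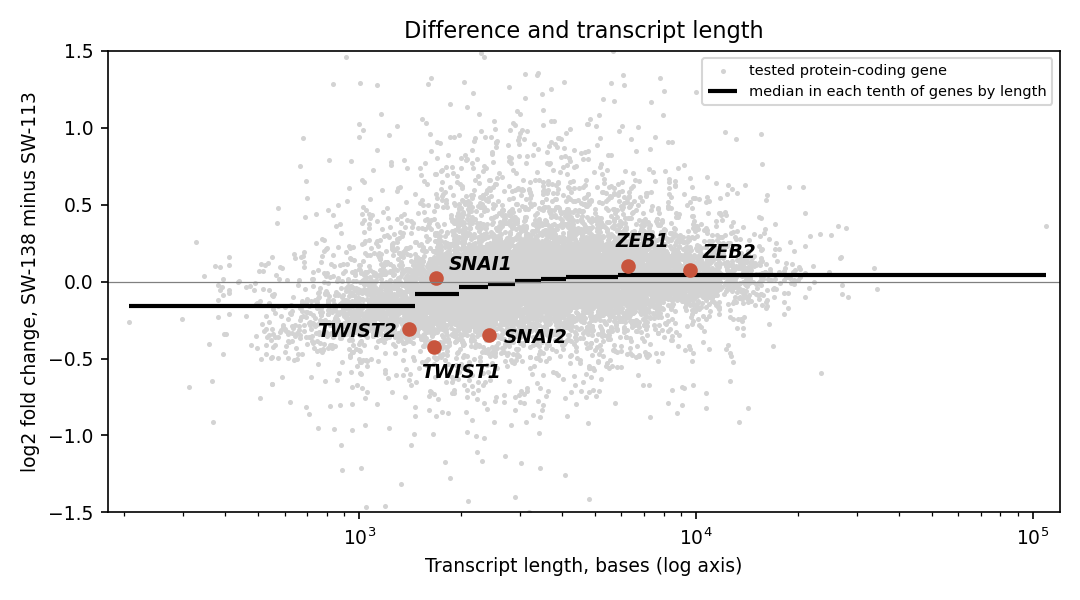
Log2 fold change, SW-138 minus SW-113, against transcript length on a log axis for 13300 tested protein-coding genes (15 beyond 1.5 on either side are not drawn), with black lines for the median in each of 10 length classes. The medians run from -0.16 in the shortest class to 0.04 in the longest; TWIST1, TWIST2 and SNAI2 lie below the line of their class and both ZEB genes near theirs.

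Genes with the most similar profile were taken as those, among 9493 tested genes with a mean of at least 10 CPM, with the smallest root mean square difference in centred log2 CPM over the 6 libraries. For SNAI2 these were BNIP3 at 0.0256 and TXN at 0.0296. For TWIST1 they were DUSP4 at 0.0336 and IMP3 at 0.0389, and for TWIST2 KRT10 at 0.0183 and OSBPL11 at 0.0298. For ZEB1 they were PPFIBP1 at 0.0124 and IPO9 at 0.0155, and for ZEB2 ARCN1 at 0.0123 and TACC1 at 0.0125. SNAI1 had no close neighbour on this scale, with HIST4H4 at 0.144 and TICRR at 0.148. Scatter between libraries of a compound adds to this distance, and SNAI1 had the most among the tested members. Its coefficients of variation were 20.3% in SW-113 and 26.5% in SW-138, so a distinct profile cannot be read from its distances.

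The partners and targets of these factors were then described from 7 lists compiled by hand from textbook knowledge. The lists were chosen with earlier results of these data known, so their calls and p-values are descriptive. Calls are from edgeR's quasi-likelihood test with Benjamini-Hochberg adjustment over all tested genes, beside the 6.82% called over all genes. Among corepressors and dimer partners, 0 of 30 tested genes rose and 1 fell, with a median log2 fold change of 0.00 and 5 genes at an unadjusted p under 0.05. The one was EHMT2, the histone H3 lysine 9 methyltransferase G9a that Snail recruits, at 62.2 ± 1.97 and 52.05 ± 1.251 CPM (SD, n = 3 each). Its log2 fold change was -0.26 (SE 0.05, edgeR adjusted p = 0.016). It lost the call without SW-113 replicate 2, SW-113 replicate 3 or SW-138 replicate 1.

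The other 29 genes of the list did not pass. The ZEB corepressors CTBP1 and CTBP2 had log2 fold changes of -0.10 (SE 0.04) and -0.11 (SE 0.05). KDM1A, the lysine demethylase LSD1 bound by Snail, was at 0.04 (SE 0.05). The E proteins that dimerise with TWIST were at -0.09 (SE 0.05) for TCF3, 0.14 (SE 0.09) for TCF4 and 0.02 (SE 0.05) for TCF12. Among their ID antagonists, ID1 was at 34.1 ± 1.76 and 31.9 ± 2.64 CPM, ID3 at 10.5 ± 2.68 and 12.4 ± 1.06, and ID2 at 0.687 ± 0.134 and 0.897 ± 0.0953 (SD, n = 3 each).

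Genes that act on the stability or phosphorylation of these proteins gave 0 higher and 2 lower of 30 tested, with a median of -0.05. MDM2, an E3 ubiquitin ligase best known for p53, went from 355 ± 18.4 CPM in SW-113 to 257 ± 13.6 in SW-138 (SD, n = 3 each). Its log2 fold change was -0.47 (SE 0.06, edgeR adjusted p = 0.0029), and it passed with each library left out. STUB1, the chaperone-associated ligase CHIP, went from 97.6 ± 7.18 to 76.8 ± 5.83 CPM, a log2 fold change of -0.35 (SE 0.07, edgeR adjusted p = 0.018). It lost the call without SW-113 replicate 2, SW-113 replicate 3 or SW-138 replicate 1.

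Upstream signals gave 3 higher and 0 lower of 30 tested, with a median of 0.00. EGR1, an immediate early transcription factor, rose from 7.03 ± 0.703 to 13.9 ± 1.74 CPM (SD, n = 3 each), a log2 fold change of 0.98 (SE 0.12, edgeR adjusted p = 0.0019). ETS1, a transcription factor downstream of RAS and MAP kinase signalling, rose from 174 ± 5.10 to 221 ± 2.59 CPM, or 0.34 (SE 0.04, edgeR adjusted p = 0.0041). Both passed with each library left out. IL6, an inflammatory cytokine, was at 2.57 ± 0.131 and 4.15 ± 0.408 CPM, or 0.69 (SE 0.14, edgeR adjusted p = 0.015). Its call was lost without SW-138 replicate 1 or any single SW-113 library. The remaining 27, which include the TGF-beta ligands and receptors, SMAD2, SMAD3 and SMAD4, did not pass.

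Among other transcription factors of mesenchymal cells, 1 rose and 1 fell of 24 tested, with a median of 0.00. MSX1, a homeodomain factor, went from 10.6 ± 0.209 to 7.52 ± 0.0719 CPM (SD, n = 3 each), a log2 fold change of -0.50 (SE 0.08, edgeR adjusted p = 0.0058), and passed with each library left out. TEAD1, the DNA-binding partner of YAP1, was at 0.21 (SE 0.05, edgeR adjusted p = 0.049). TEAD1 passed only without SW-138 replicate 3 when single libraries were left out, and did not pass at 0.16 with length and G+C trends removed. Of 36 genes, 19 had a mean under 1 CPM.

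Epithelial genes that these factors are known to repress were mostly at low levels under both compounds. Of 34 epithelial genes in the table, 25 had a mean under 1 CPM, and 0 of the 12 tested were called in either direction by edgeR, with 1 at an unadjusted p under 0.05. DESeq2 and limma-voom also called 0. The median log2 fold change was 0.03, and the list summed to 491 to 506 CPM in SW-113 and 483 to 528 CPM in SW-138. CDH1 and EPCAM were at 0.0605 CPM or less in every library. Nearly all of the sum came from KRT8 and KRT18, with log2 fold changes of 0.03 (SE 0.05) and 0.04 (SE 0.06).

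Mesenchymal structure and matrix genes gave 2 higher and 2 lower of 24 tested (16.7%), with a median of 0.07 and 8 at an unadjusted p under 0.05. The split was 5 higher and 1 lower with total-count scaling or with DESeq2, 8 and 2 with the replicate block, 7 and 3 with a filter of 1 count, and 7 and 1 without SW-138 replicate 2. Without SW-113 replicate 2, SW-113 replicate 3 or SW-138 replicate 1, it was 0 higher and 1 lower. LOX, the collagen cross-linking lysyl oxidase, rose from 134 ± 8.48 to 172 ± 15.4 CPM (SD, n = 3 each), or 0.36 (SE 0.07, edgeR adjusted p = 0.017). ACTA2, smooth muscle alpha-actin, fell from 20.2 ± 1.06 to 13.3 ± 1.51 CPM, or -0.61 (SE 0.09, edgeR adjusted p = 0.0050). TGFBI, a matrix protein induced by TGF-beta, went from 21.9 ± 0.316 to 18.6 ± 0.209 CPM, or -0.24 (SE 0.06, edgeR adjusted p = 0.038).

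ACTA2 passed with each library left out. LOX lost its call without SW-113 replicate 2, SW-113 replicate 3 or SW-138 replicate 1. TGFBI lost it without any one library and with DESeq2 or total-count scaling. The defining mesenchymal genes did not pass. VIM, the intermediate filament vimentin, was at 3465 ± 185 and 3763 ± 85.1 CPM, a log2 fold change of 0.12 (SE 0.05). FN1, fibronectin, was at 1129 ± 127 and 1316 ± 204 CPM, or 0.22 (SE 0.11). CDH2, N-cadherin, was at 112 ± 9.001 and 139 ± 20.4 CPM, or 0.31 (SE 0.10, edgeR adjusted p = 0.090).

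The microRNA host and antisense list had 19 genes in the table, of which 12 had 0 counts in every library, among them the precursors MIR200A, MIR200B, MIR200C, MIR141, MIR429 and MIR205. A count of 0 for a precursor gene says nothing of the mature form, which was not measured. Of the 4 tested, 0 were called in the main edgeR fit, with a median of -0.15 and 1 at an unadjusted p under 0.05. MIR34AHG, the host transcript of miR-34a, had 101 to 168 counts in SW-113 and 60 to 79 in SW-138. It was called by DESeq2, and by edgeR with length and G+C trends removed, but not in the main edgeR fit. In the main fit its log2 fold change was -0.83 (SE 0.24, edgeR adjusted p = 0.064).

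**Figure D5:**
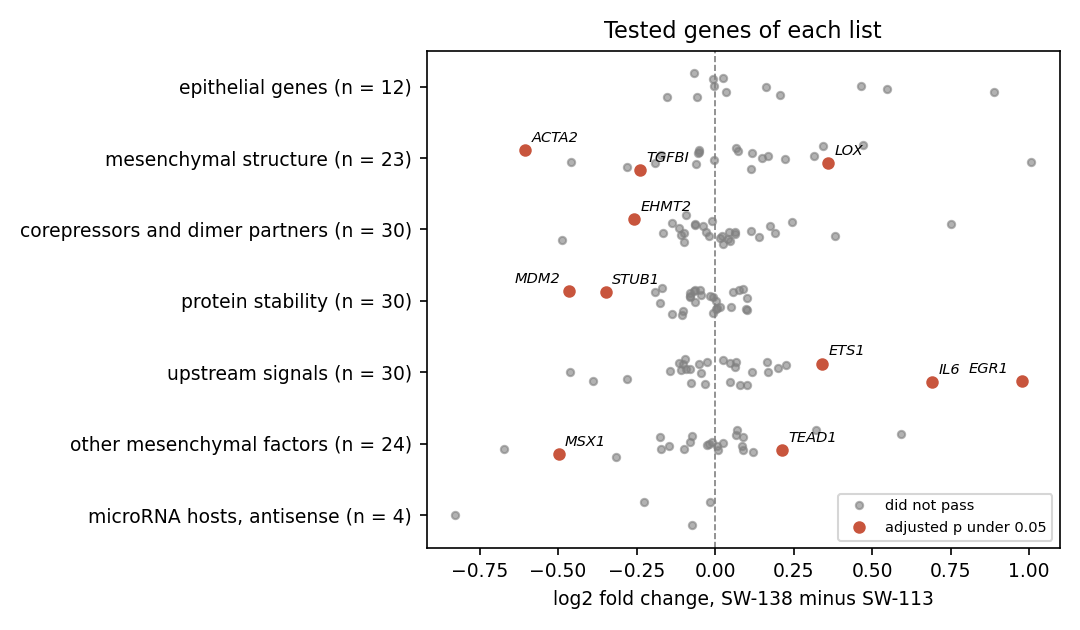
Log2 fold change, SW-138 minus SW-113, of the tested genes of each list, with genes past an adjusted p of 0.05 in red and named; 1 tested gene of the mesenchymal structure list is not drawn. Most genes lay within 0.25 of 0; the epithelial and microRNA lists had 0 genes past the threshold, and in the stability list MDM2 and STUB1 lay lowest.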

How the data were processed

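RNA from 6 HT1080 libraries, 3 per compound at 1 µM for 48 h, was measured after ribosomal RNA depletion, per the labels' protocols. The authors deposited expected counts per gene, estimates that need not be whole (10.6% to 11.6% of values per library). RSEM 1.3.3, Bowtie2 2.5.4, Trimmomatic 0.39, DESeq2 1.42.0 and the build GRCh38 are listed without role or order, per the submitters' processing notes. The annotation and the strandedness of counting are not given in the sources used here, so reads of antisense partners may not be separated.

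Expected counts were rounded. Genes were filtered with edgeR's filterByExpr and compared, SW-138 minus SW-113, by the quasi-likelihood test (edgeR 4.0.16, TMM scaling, R 4.3.3), with Benjamini-Hochberg adjustment over 16905 genes at 0.05. Standard errors and 95% intervals came from limma-voom (limma 3.58.1). The p-values measure only the spread between these libraries. Lengths, coordinates and 3′ UTRs came from GENCODE 29, promoters and microRNAs from RefSeq. The fit was tested on simulated data. Figures were drawn with matplotlib 3.10.9.

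The 7 genes and the 8 lists (238 entries, cell type markers included) were chosen with earlier results of these data known. Genes named were the members, up to 4 called genes per list by smallest p, a set that was always named (such as CDH1, VIM, CTBP1 and TCF3), overlapping genes, and the 2 nearest profiles per member; MIR34AHG, the microRNA precursors, KRT8, KRT18, other markers and the SMAD genes were named after their values were seen. Alternatives were DESeq2, limma-voom, 3 other scalings, 2 other filters, a replicate block, removal of length and G+C trends, leaving out each library and, chosen after seeing the data, exon-union lengths. One called gene of the mesenchymal structure list is counted there and not reported here by name.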

Additional observations from a re-analysis of the deposited data

How the results depend on the processing

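With 3 libraries per compound and 102 to 157 counts, SNAI1 had the widest interval. PRRX1, with 36 counts in all, could be tested only with a filter of 1 count in 1 library. It was not called there. The number of genes called among all tested was 1153, and 303 to 1616 without 1 library, 2060 with a filter of 1 count and 2363 with the replicate block, and stayed between 1123 and 1368 otherwise. Lower calls outnumbered higher ones in each of these except total-count scaling (923 higher, 377 lower). The labels do not say whether shared replicate numbers mark a shared batch, and this was not tested. Same-numbered libraries correlated at 0.049, 0.206 and 0.051 in their deviations, and differently numbered ones at -0.142 to 0.090. Of the 3 SW-113 libraries, 1 correlated best with its own number. Members called were 0 to 3 without 1 library (0 without SW-113 replicate 3) and 2 to 3 otherwise. SNAI1 ranged from -0.15 to 0.22 without 1 library and turned negative without SW-113 replicate 2 (-0.12), SW-138 replicate 2 (-0.02) or SW-138 replicate 3 (-0.15). Without 1 library, called genes ranged from 1 to 8 in the mesenchymal structure list, 0 to 2 among corepressors and partners, 1 to 3 in the stability list, 2 to 4 among upstream signals and 1 to 2 among other transcription factors. The replicate block gave 10, 3, 5, 6 and 4 in these lists and 1 in the microRNA list. The 1-count filter gave 10 in the mesenchymal list, 2 among corepressors and 1 in the microRNA list. Corepressors also came to 2 with total-count or upper-quartile scaling, the filter at a mean of 5 CPM, DESeq2, limma-voom and trends removed. Trends removed gave 4 in the stability list and 1 in the microRNA list, DESeq2 gave 1 in the microRNA list, and total-count scaling gave 6 among upstream signals. The epithelial list had 0 throughout. The cause of these shifts was not tested. Total-count scaling moved the median of all genes by 0.06.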
